A study of Mus musculus with 21 samples.

Results

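The Ly6 genes described here are *Ly6d*, *Ly6a*, *Ly6e*, *Ly6c2* and *Ly6k*, 5 of the 55421 genes in the QuantSeq table, together with the Zbtb1 and Cbfa2t3 ChIP-seq peaks whose nearest gene is 1 of them. They were chosen by the lower level of *Ly6d* in the libraries labelled sgCbfa2t3 than in those labelled sgCont. Every comparison with sgCbfa2t3 is therefore given as a description, without a test. The cells were an *Ebf1*-deficient lymphoid progenitor (LP) line of C57BL6/J origin, kept on OP9 stromal cells with SCF, IL-7 and Flt3L and given no Notch stimulation. All of them carried Cas9 with GFP and received a pool of 2 sgRNAs with the hNGFR marker, against luciferase (sgCont), *Lmo2* (sgLmo2), *Zbtb1* (sgZbtb1), *Cbfa2t2* (sgCbfa2t2) or *Cbfa2t3* (sgCbfa2t3). GFP+hNGFR+ cells were sorted 5 days later, as pools rather than clones, and each of the 5 conditions had 3 biological replicates, which made 15 libraries. ChIP-seq for each factor was made on 2 replicates of *Ebf1*-deficient LPs, also without Notch stimulation.

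Ly6 proteins are small surface proteins that fold into a three-finger domain held by disulphide bonds, and most of them are tied to the outer membrane by a glycosylphosphatidylinositol (GPI) anchor. Many of their genes lie in a cluster on mouse chromosome 15. Several mark stages of blood cell development. Ly6d separates lymphoid progenitors that are biased to the B lineage from those that keep a wider potential, Ly6a is the stem cell antigen Sca-1, Ly6c2 is part of the Ly6C antigen of monocytes and some lymphocytes, Ly6e is widely expressed and induced by interferon, and Ly6k is known mainly from the germ line.

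The libraries held 1705416 to 2095447 reads. Values are the reads of a gene on a scale common to all libraries, named TPM by the study. They are not divided by gene length and are compared here between conditions, never between genes. A floor of 3 reads, which equals 1.43 to 1.76 TPM depending on the library, was set for a measurable level and covers counting error only. No targeted mRNA was lower under its own sgRNA beyond the replicate spread. *Zbtb1* averaged 105.6 TPM in the libraries labelled sgZbtb1 and 61.7 TPM in sgCont, *Cbfa2t3* 349.8 and 190.2 TPM, *Cbfa2t2* 21.9 and 11.8 TPM, and *Lmo2* 16.3 and 18.4 TPM. For *Zbtb1*, *Cbfa2t3* and *Cbfa2t2* the 3 targeted libraries lay above those of sgCont (*Cbfa2t2* did not pass, limma adjusted p = 0.412). Small edits need not lower the 3′ reads of a gene, so mRNA does not check the loss of the protein. Protein was not analysed here, and the study reported loss of Lmo2, Zbtb1 and Cbfa2t3 protein by immunoblot. Every direction below is that of libraries labelled with an sgRNA. *Ebf1* mRNA averaged 217.2 to 336.3 TPM over the conditions, so the 3′ reads do not show the deficiency of the line. Replicates differed by more than sampling noise.

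*Ly6d* differed more between conditions than any other Ly6 gene measured. The level of *Ly6d* was 134, 155 and 186 TPM in sgCont and 179, 223 and 198 TPM in sgLmo2. It was at 101, 94.5 and 95.6 TPM in sgCbfa2t2, at 55.2, 67.4 and 51.0 TPM in sgCbfa2t3, and at 27.9, 36.8 and 23.6 TPM in sgZbtb1. From the highest mean to the lowest, the order was sgLmo2 (200.2 ± 21.9 TPM), sgCont (158.2 ± 26.1 TPM), sgCbfa2t2 (97.1 ± 3.54 TPM), sgCbfa2t3 (57.9 ± 8.52 TPM) and sgZbtb1 (29.4 ± 6.75 TPM; SD, n = 3 each). The ranges of sgLmo2 and sgCont overlapped, and those of the other 3 pairs of neighbours in this order did not. Each library held between 48 and 456 *Ly6d* reads, so all values stood well above the floor. In a bulk sample, fewer cells with *Ly6d* and less *Ly6d* RNA per cell cannot be told apart.

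**Figure D1:**
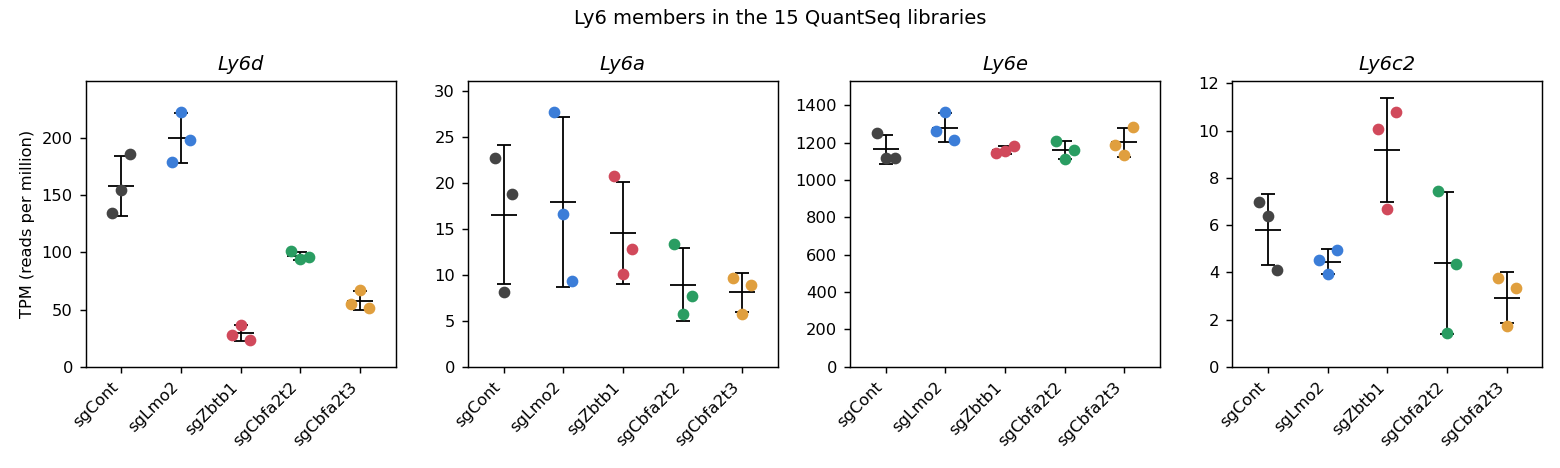
Level of 4 Ly6 genes in TPM (linear axes starting at 0) in the 15 QuantSeq libraries, by sgRNA label. Each point is 1 library, the bar is the mean and the whiskers are the SD (n = 3). *Ly6d* falls from 200.2 TPM on average in sgLmo2 to 29.4 TPM in sgZbtb1, while *Ly6e* stays between 1113 and 1366 TPM in every library; *Ly6k* is not drawn.

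Against sgCont, *Ly6d* fell in the libraries labelled sgZbtb1 by 2.40 on the log2(TPM + 1) scale (standard error 0.15, 95% interval -2.70 to -2.10, limma adjusted p = 3.19e-20), a ratio of means of 5.37. It ranked 2 by p among the 11554 genes tested. In all, 554 genes, 4.79%, had an adjusted p under 0.05 in this comparison, 1.85% higher and 2.94% lower. Of the 4 Ly6 genes in the fit, *Ly6d* alone passed.

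In the libraries labelled sgCbfa2t2, *Ly6d* fell by 0.69 on the log2 scale (standard error 0.15, 95% interval -0.99 to -0.39, limma adjusted p = 0.0186), a ratio of means of 1.63. Here 17 genes, 0.147%, passed, and again *Ly6d* alone among the Ly6 genes. This smaller difference did not pass without sgCont replicate 2 (limma adjusted p = 0.133), sgCont replicate 3 (0.254), sgCbfa2t2 replicate 2 (0.248) or sgCbfa2t2 replicate 3 (0.0594), nor when all 18602 genes above 0 were fitted (0.264). Its log2 value was between -0.80 and -0.56 over the 6 libraries left out in turn.

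In the libraries labelled sgLmo2, where 2 genes, 0.0173%, passed, *Ly6d* was 0.34 higher on the log2 scale (95% interval 0.05 to 0.64), which did not pass (limma adjusted p = 0.849). No Ly6 gene passed there in limma, edgeR or DESeq2, and *Ly6d* alone had an unadjusted p under 0.05. All of these comparisons use the same 3 sgCont libraries. The *Ly6d* values of sgCont were part of what chose these genes, and a choice on a high sgCont level favours lower values elsewhere, so the p-values of *Ly6d* against sgCont are not independent of that choice.

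Differences among sgLmo2, sgZbtb1 and sgCbfa2t2 take their means from none of the libraries that chose the genes, although the standard error comes from all 15, and gave the same order for *Ly6d*. Earlier results of these data were, however, known when the genes were chosen. The log2 difference of *Ly6d* from sgLmo2 was -2.74 in sgZbtb1 (limma adjusted p = 2.88e-23), where 5.06% of the genes passed, and -1.03 in sgCbfa2t2 (limma adjusted p = 8.22e-06), where 0.234% passed. The ratios of means were 6.8 and 2.06. Between sgZbtb1 and sgCbfa2t2 the difference itself was tested, and *Ly6d* was lower in sgZbtb1, with a log2 difference of -1.71 (limma adjusted p = 2.38e-13), a ratio of means of 3.3, with 2.27% of the genes passing. *Ly6d* was called in each of these 3 comparisons under all 8 other settings of the fit and with each of 6 libraries left out, and the other 3 Ly6 genes passed in none of them. With only the compared libraries in the fit, the limma adjusted p of *Ly6d* was 1.75e-22, 1.78e-06 and 1.12e-12 in the same order.

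As a description of the values that chose these genes, the log2 difference of *Ly6d* in sgCbfa2t3 was -1.43 from sgCont, -1.78 from sgLmo2, -0.75 from sgCbfa2t2 and 0.96 from sgZbtb1 (standard error 0.15 each).

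*Ly6a*, the gene of Sca-1, was low and varied widely between replicates. It was at 22.6, 8.10 and 18.8 TPM in sgCont, 27.7, 16.6 and 9.31 TPM in sgLmo2, and 20.7, 10.0 and 12.8 TPM in sgZbtb1. It was at 13.3, 5.73 and 7.73 TPM in sgCbfa2t2 and at 9.65, 5.71 and 8.86 TPM in sgCbfa2t3. The ranges of all neighbours in the order of its means overlapped, and replicate 1 was the highest of the 3 in each of the 5 conditions. Within each replicate number, *Ly6a* was lower in sgCbfa2t2 and in sgCbfa2t3 than in sgCont, which did not hold for sgZbtb1 or sgLmo2. The log2 difference of *Ly6a* from sgCont was -0.78 in sgCbfa2t2 (95% interval -1.54 to -0.02, limma adjusted p = 0.508), -0.12 in sgZbtb1 (95% interval -0.88 to 0.63, limma adjusted p = 0.918) and 0.10 in sgLmo2 (95% interval -0.66 to 0.86, limma adjusted p = 0.994). These intervals include a 1.5-fold change of either sign in sgZbtb1, so a change of that size could not be told from none with these replicates. With a library left out, the value of *Ly6a* was between -0.54 and 0.15 in sgZbtb1 (above 0 without sgCont replicate 1 or 3 or sgZbtb1 replicate 2) and between -0.32 and 0.47 in sgLmo2 (below 0 without sgCont replicate 2 or sgLmo2 replicate 1), so neither has a direction. Against sgLmo2, *Ly6a* was -0.88 in sgCbfa2t2 on the log2 scale (limma adjusted p = 0.639). In sgCbfa2t3 its log2 difference from sgCont was -0.86 (standard error 0.38), as a description.

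*Ly6e*, the interferon-inducible member, was measured with the most reads and differed least. It was at 1253, 1120.0 and 1119 TPM in sgCont, 1261, 1366 and 1214 TPM in sgLmo2, 1143, 1157 and 1183 TPM in sgZbtb1, 1208, 1113 and 1160.2 TPM in sgCbfa2t2, and 1189.8, 1132 and 1284 TPM in sgCbfa2t3. No condition stood apart from its neighbours in the order of the means. The log2 difference of *Ly6e* from sgCont was -0.0016 in sgZbtb1 (95% interval -0.14 to 0.14, limma adjusted p = 0.993) and -0.0032 in sgCbfa2t2 (95% interval -0.15 to 0.14, limma adjusted p = 0.995). In sgLmo2 it was 0.14 (95% interval -0.01 to 0.28, limma adjusted p = 0.883). The interval in sgZbtb1 leaves out any change of *Ly6e* near the size of that of *Ly6d*.

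*Ly6c2*, which encodes part of the Ly6C antigen, was near the floor. It was at 6.97, 6.37 and 4.10 TPM in sgCont, 4.52, 3.91 and 4.93 TPM in sgLmo2, and 10.1, 6.69 and 10.8 TPM in sgZbtb1. The other libraries had 7.45, 1.43 and 4.35 TPM in sgCbfa2t2 and 3.75, 1.71 and 3.32 TPM in sgCbfa2t3. The sgZbtb1 libraries were the highest on average and overlapped those of sgCont in range. The log2 difference of *Ly6c2* in sgZbtb1 was 0.58 from sgCont (95% interval -0.35 to 1.52, limma adjusted p = 0.565) and 1.06 from sgCbfa2t2 (95% interval 0.13 to 2.00, limma adjusted p = 0.296), and neither passed. In sgCbfa2t3 it was -0.81 from sgCont (standard error 0.47), as a description. *Ly6k* was listed at 0 in 14 libraries and at 1.13 TPM, 2 reads, in sgLmo2 replicate 1, which is under the floor, so no fold is given.

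*Ly6c2* shares long stretches with *Ly6c1*, and *Ly6a* with *Ly6i*, and how the reads of such copies were divided is uncertain.

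**Figure D2:**
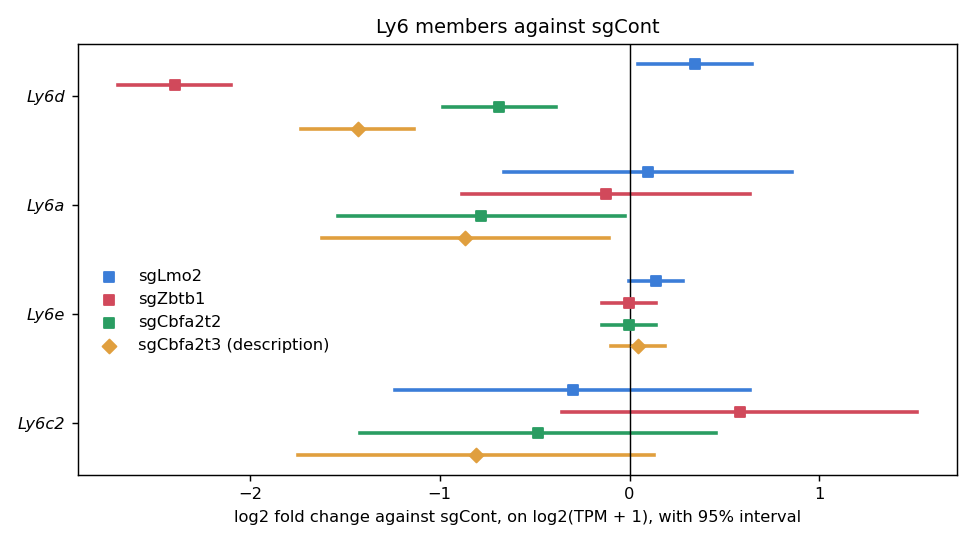
Log2 fold change against sgCont, on log2(TPM + 1), of the 4 Ly6 genes in the fit, with 95% intervals as bars. Squares are tested comparisons and diamonds are sgCbfa2t3, which chose the genes and has no test. The interval of *Ly6d* in sgZbtb1 runs from -2.70 to -2.10, and those of the other 3 genes in sgZbtb1 include 0.

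The wider family gave few other genes for the fit. Of 44 genes of the Ly6/uPAR family in the table, 31 were listed at 0 in all 15 libraries, 5 had reads but a mean of at most 1 TPM, and 8 entered the fit. Besides the 4 Ly6 genes above these were *Lynx1*, a modulator of nicotinic receptors, *Plaur*, the urokinase receptor, *Ly6g5b* and *2310033P09Rik*. *Ly6d* was the only family gene called in any of the 6 tested comparisons. The median log2 difference of the 8 genes was -0.13 in sgZbtb1, -0.24 in sgCbfa2t2 and 0.11 in sgLmo2, against -0.03, 0.005 and 0.01 over all genes tested. As a description, the median was -0.63 in sgCbfa2t3, with 7 of the 8 genes below 0, against -0.01 over all genes. These 8 include *Ly6d*, which chose the set, and genes near or under the floor. In sgCbfa2t3 *Plaur* had 4, 0 and 5 reads and *Ly6g5b* 3, 1 and 1. *Lynx1*, which lies next to *Ly6d*, was -1.04 in sgZbtb1 (limma adjusted p = 0.262) and -1.08 in sgCbfa2t2 (limma adjusted p = 0.482) on the log2 scale.

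On mm10, with GENCODE vM21 gene models, the 5 genes lie on chromosome 15 within 349.9 kb. *Ly6d* (ENSMUSG00000034634) runs from 74762056 to 74763620 on the minus strand and *Ly6k* (ENSMUSG00000044678) from 74796874 to 74799986 on the minus strand. *Ly6e* (ENSMUSG00000022587) runs from 74955051 to 74959905 on the plus strand. *Ly6a* (ENSMUSG00000075602) runs from 74994877 to 74998031 and *Ly6c2* (ENSMUSG00000022584) from 75108158 to 75111970, both on the minus strand. In the window that reaches 250 kb past the outer genes, 48 genes are annotated, 26 of them protein-coding, and 7 entered the fit: *Ly6d*, *Ly6a*, *Ly6e*, *Ly6c2*, *Lynx1*, *Them6* and *Jrk*. In sgZbtb1 against sgCont, *Ly6d* alone among these 7 was called, where 4.79% of all genes were. *Them6*, the neighbour whose start lies 42.4 kb from that of *Ly6d*, was lower in sgZbtb1 than in sgLmo2, with a log2 difference of -0.81 (limma adjusted p = 0.0113), and differed by -0.39 from sgCont (limma adjusted p = 0.337). That *Them6* call was lost with 3 of the 6 libraries left out in turn.

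The ChIP-seq lists hold peaks found in both replicates, with a normalized score that counts the reads in a peak scaled to a fixed library total. Replicates cannot be compared in them. The Zbtb1 list has 5898 peaks with a median score of 28.0, and the Cbfa2t3 list 6077 peaks with a median score of 33.2. Peaks with a Ly6 gene of this set as the nearest gene numbered 3 for Zbtb1 and 2 for Cbfa2t3, and all 5 named *Ly6e*. For comparison, 26.8% of the genes in the fit were named by a Zbtb1 peak and 20.5% by a Cbfa2t3 peak. No peak named *Ly6d*, *Ly6a*, *Ly6c2* or *Ly6k*.

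The peak with the highest score near *Ly6e* was a Cbfa2t3 peak at chr15:74933847-74934225, 21.0 kb before the start of *Ly6e*, with a score of 520.2, which ranked 7 in the list. It lies in an RLTR4_Mm element, a long terminal repeat of an endogenous retrovirus, and overlaps the lincRNA gene *Gm39556*. A Zbtb1 peak with a score of 34.4 overlapped it (chr15:74933861-74934231). The authors' mapping kept reads that match up to 10 places, and the part of other copies of the element in this score was not tested. RLTR4_Mm elements held 22 Cbfa2t3 peaks, 0.362% of the list, with scores from 26.3 to 520.2 and a median of 52.2, and 2 Zbtb1 peaks. The other Zbtb1 peaks that name *Ly6e* had scores of 30.9 (in a MurERV4-int element, 24.3 kb before its start) and 19.9 (36.4 kb before it). The other Cbfa2t3 peak, with a score of 24.6, lies in the 5′ UTR of *Ly6e*, 0.6 kb past its start. *Ly6e* thus had the peaks, and its mRNA passed in none of the 3 tested comparisons with sgCont. Among these, sgZbtb1 alone targets a factor that has a peak list. In sgCbfa2t3 the log2 difference of *Ly6e* from sgCont was 0.046 (standard error 0.072), as a description.

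The nearest peaks to *Ly6d* lie 23.4 kb past its start, downstream of the gene, and the lists name *Lypd2* as their gene. Both factors had a peak there. The Zbtb1 peak (chr15:74740030-74740400) had a score of 91.3 and ranked 584 of 5898, and the Cbfa2t3 peak (chr15:74740026-74740404) had a score of 22.7 and ranked 5255 of 6077. The place is annotated as intergenic. *Lypd2* and *Slurp2*, the protein-coding genes on either side, were listed at 0 in all 15 libraries. A second place with peaks of both factors lies 9.3 kb downstream of the start of *Ly6a*, with scores of 34.2 for Zbtb1 (chr15:74988555-74988925) and 36.1 for Cbfa2t3 (chr15:74988530-74988908). Across both lists, 25.2% of the Zbtb1 and 24.4% of the Cbfa2t3 peaks overlapped a peak of the other factor. Cbfa2t3 alone had peaks at *Them6* with scores of 70.9 and 32.8, 40.2 and 39.1 kb past the start of *Ly6d*, and a peak with a score of 69.4 at 142.7 kb on its other side.

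**Figure D3:**
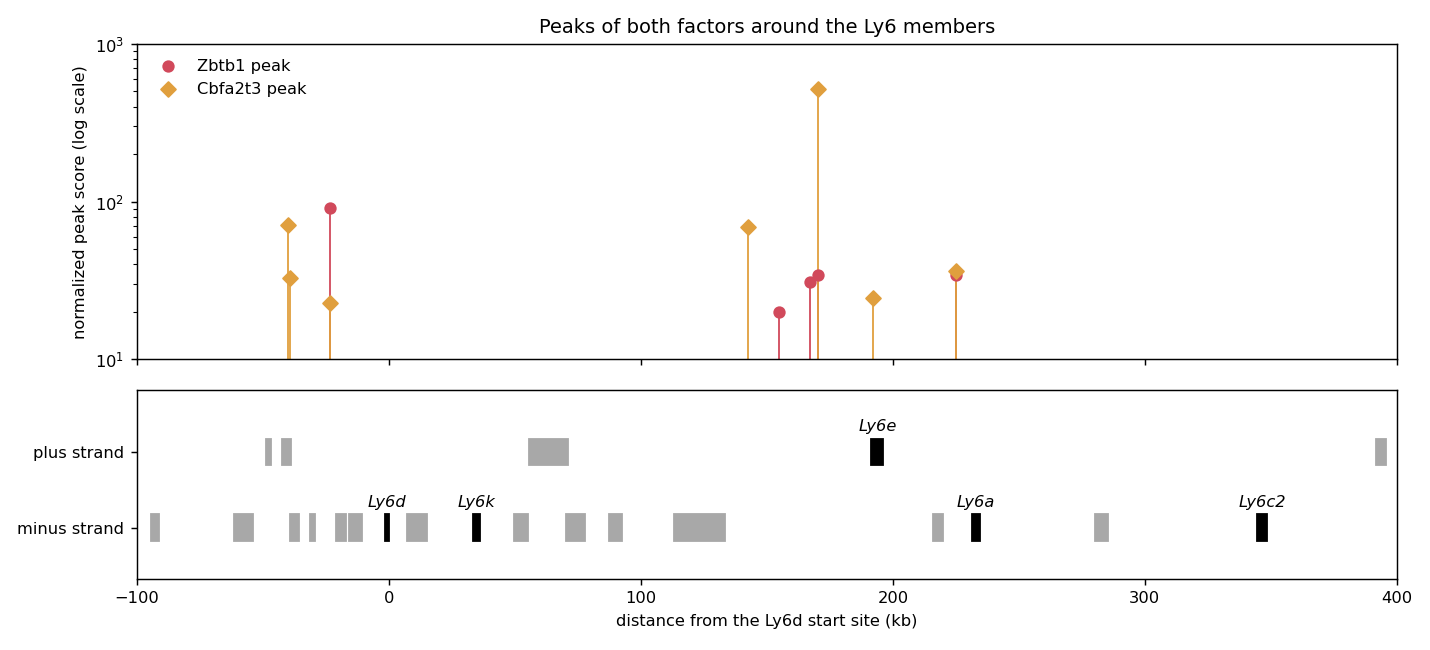
Peaks of Zbtb1 and Cbfa2t3 around the Ly6 genes. The upper panel gives the normalized score of each peak (log axis) against the distance of its centre from the *Ly6d* start site in kb, and the lower panel the Ly6 genes (black) and other protein-coding genes (grey) by strand. Both factors have a peak 23.4 kb from *Ly6d*, and the highest score, 520.2, belongs to the Cbfa2t3 peak near *Ly6e*.

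The 200 bases at the centre of the 2 Zbtb1 peaks nearest to *Ly6d* and *Ly6a* are shown, since Cbfa2t3 shares both. *Slurp2* and *Lynx1* lie between the first and *Ly6d*, and the Zbtb1 list names *Lypd2* for the first and *Ly6i* for the second, which overlaps *Gm37042*. They were read from GRCm38.p6 on the plus strand, and capitals mark matches to the motifs searched.

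chr15:74740116-74740315: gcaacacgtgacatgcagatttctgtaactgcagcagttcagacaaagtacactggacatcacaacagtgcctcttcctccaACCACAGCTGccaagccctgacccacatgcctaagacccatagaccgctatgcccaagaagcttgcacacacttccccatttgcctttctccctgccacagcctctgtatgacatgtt
chr15:74988641-74988840: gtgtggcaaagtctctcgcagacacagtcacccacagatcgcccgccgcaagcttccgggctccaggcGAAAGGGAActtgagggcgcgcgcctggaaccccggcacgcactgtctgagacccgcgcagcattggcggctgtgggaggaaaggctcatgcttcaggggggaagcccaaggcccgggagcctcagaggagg

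Searched on both strands were the Runx core TGTGGT, the repeat TGGTGGT found in Zbtb1 peaks, the E-box cores CAGCTG and CAGGTG, the GATA core AGATAA, and GAAANNGAA, the core of an interferon response element. A match is a description of letters, not of binding. The first sequence, 23.4 kb from *Ly6d*, holds TGTGGT on the minus strand at bases 83 to 88 and CAGCTG at bases 87 to 92, so these matches share bases 87 and 88. The second sequence, 9.3 kb from *Ly6a*, holds GAAANNGAA at bases 69 to 77 and none of the others. In the same 200 bases at all peak centres on the main chromosomes, TGTGGT was present in 41.3% of 5890 Zbtb1 and 43.7% of 6070 Cbfa2t3 peaks. CAGCTG was present in 15.5% and 47.4%, CAGGTG in 14.3% and 41.6%, TGGTGGT in 15.8% and 7.02%, AGATAA in 4.31% and 6.47%, and GAAANNGAA in 3.31% and 6.23%. Over the 12 peak entries of either list in the window around the Ly6 genes, TGTGGT was found in 5, CAGCTG in 5, CAGGTG in 7, AGATAA in 3, GAAANNGAA in 2 and TGGTGGT in 1. Places with a peak of both factors count once per list here, so these are fewer than 12 separate places. Both GAAANNGAA entries are the place near *Ly6a*.

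Genes that move like *Ly6d* were sought over the 15 libraries, as a description without a test. Pearson's r of log2(TPM + 1) was computed between *Ly6d* and the other 8156 genes with a mean above 10 TPM, and all points share the same libraries and depth. The highest values were those of *Gprin3* (0.948), *Mgst2* (0.943), *Thy1* (0.941), *S100a4* (0.939) and *Txk* (0.939). *Thy1* encodes the Thy-1 surface protein, which is GPI-anchored like Ly6d, and *Txk* a Tec family kinase of T cells. *Txk* averaged 46.0 TPM in sgCont, 49.5 in sgLmo2, 31.6 in sgCbfa2t2, 19.5 in sgCbfa2t3 and 9.29 in sgZbtb1, the same order of conditions as *Ly6d*. The lowest values were those of *Reep5* (-0.932), *Dnttip2* (-0.928), *Ncl* (-0.927), *Ybx3* (-0.923) and *Nsun2* (-0.913). *Reep5* averaged 155.8 TPM in sgCont and 289.5 TPM in sgZbtb1. The r of *Ly6d* with *Ly6a* was 0.186 and with *Ly6e* 0.286. *Ly6c2* and *Ly6k* were below the minimum and were not correlated.

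**Figure D4:**
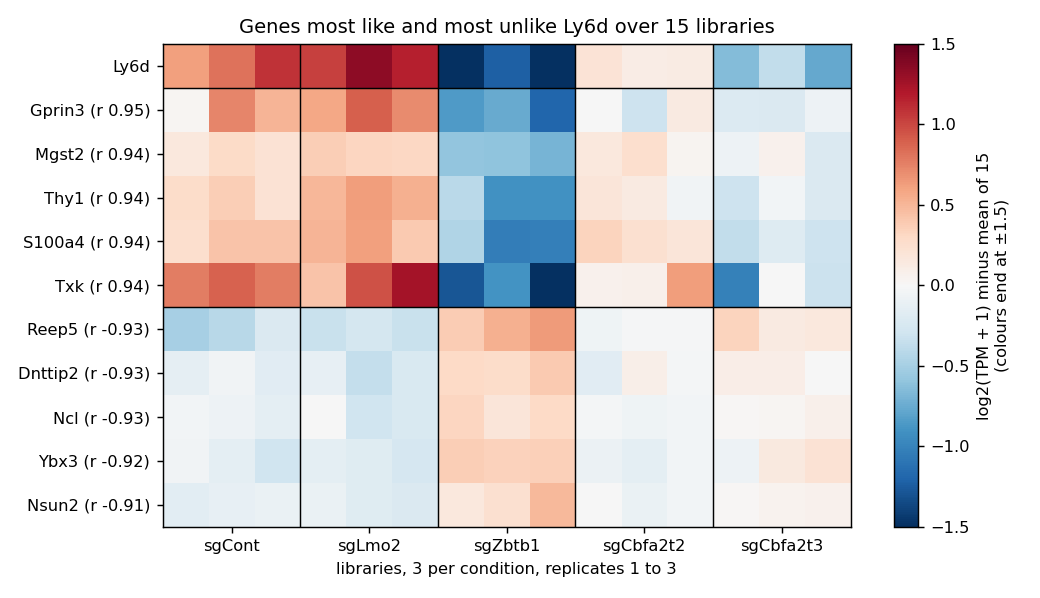
Heat map of *Ly6d*, the 5 genes with the highest and the 5 with the lowest Pearson's r to it over the 15 libraries. Columns are libraries, 3 per sgRNA label, and colour is log2(TPM + 1) minus the mean of the 15 libraries, ending at 1.5 on either side. *Ly6d* and the 5 genes most like it are lowest in sgZbtb1, where the 5 most unlike it are highest.

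The GPI anchor pathway builds and remodels the anchor of most Ly6 proteins. Of 27 of its genes in the fit, *Pigx*, a subunit of the first mannosyltransferase, alone was called in sgZbtb1 against sgCont, where it rose by 0.69 on the log2 scale (limma adjusted p = 0.0417) and 4.79% of all genes passed. Limma, edgeR and DESeq2 called none in sgLmo2 or sgCbfa2t2, where 1 and 0 had an unadjusted p under 0.05. The *Pigx* call was lost with each of the 6 libraries left out in turn. *Pigp* was lower in sgZbtb1 than in sgLmo2, with a log2 difference of -1.15 (limma adjusted p = 0.0202), a call that was lost with 3 of the 6 libraries left out and under 1 of 8 other settings. The median of the 27 in sgZbtb1 was -0.02, against -0.03 over all genes.

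Of 9 other genes for GPI-anchored surface proteins of blood cells, 2 fell in sgZbtb1 against sgCont, where 2.94% of all genes were lower, and none passed in limma, edgeR or DESeq2 in sgLmo2 or sgCbfa2t2 against sgCont, where 1 and 0 had an unadjusted p under 0.05. *Cd24a*, a marker of early B cells among others, was at 120.2, 133 and 93.8 TPM in sgCont and at 52.0, 44.0 and 32.9 TPM in sgZbtb1. It fell by 1.42 on the log2 scale (limma adjusted p = 4.23e-11). *Thy1* was at 313, 332 and 299.6 TPM in sgCont and 195, 137 and 137 TPM in sgZbtb1. It fell by 1.03 (limma adjusted p = 6.49e-11). The libraries of both conditions did not overlap for either gene, and both calls held with each library left out. *Bst2*, also known as tetherin, was higher in sgZbtb1 than in sgCbfa2t2 by 0.56 on the log2 scale (limma adjusted p = 0.00217), a call that was lost with 1 of the 6 libraries left out. The median of the 9 genes in sgZbtb1 was -0.04.

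Since Ly6d marks B-biased progenitors, 28 genes of such cells were read beside it, of which 19 entered the fit. In sgZbtb1 against sgCont, 5 fell and 1 rose, where 2.94% of all genes were lower and 1.85% higher, and the median of the 19 was -0.11 on the log2 scale. *Pax5*, the B lineage commitment factor, was at 6.97, 5.21 and 8.21 TPM in sgCont and at 0, 0.956 and 1.47 TPM in sgZbtb1, all at or under the floor there (log2 difference -2.19, limma adjusted p = 0.0042). *Ighm*, the immunoglobulin mu heavy chain, fell by 0.72 (limma adjusted p = 8.04e-05) and *Ebf1*, a factor of early B cell development, by 0.62 (limma adjusted p = 6.96e-06). *Cd24a* is counted in this list too. *Kit*, the receptor of SCF, fell by 1.14 (limma adjusted p = 0.0205), a call that was lost with 4 of the 6 libraries left out. *Cd93*, a marker of immature B cells, rose by 0.52 (limma adjusted p = 0.000159). None of the 19 passed in limma or edgeR in sgLmo2 or sgCbfa2t2 against sgCont, where 4 and 3 had an unadjusted p under 0.05, and DESeq2 called 1, *Ebf1*, in sgCbfa2t2. *Il7r*, the receptor chain of IL-7 on lymphoid progenitors, was lower in sgCbfa2t2 than in sgLmo2, with a log2 difference of -0.62 (limma adjusted p = 0.00142). It was also lower in sgZbtb1 than in sgLmo2, by a log2 difference of -0.40 (limma adjusted p = 0.0223), a call that was lost with 4 of the 6 libraries left out, and in sgZbtb1 against sgCont it was -0.05 (limma adjusted p = 0.881).

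*Ly6a* and *Ly6e* respond to interferon, and 25 interferon-stimulated genes of 38 listed were in the fit. Limma, edgeR and DESeq2 called none against sgCont, where limma called 4.79% of all genes in sgZbtb1, 0.147% in sgCbfa2t2 and 0.0173% in sgLmo2. In these comparisons 3, 3 and 2 of the 25 had an unadjusted p under 0.05. The median log2 difference was -0.02 in sgZbtb1, -0.22 in sgCbfa2t2 and -0.04 in sgLmo2.

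Markers of other cells moved with *Ly6d* in part. Of 26 OP9 stromal markers in the table, 18 had reads in any library, and their summed level was 16.4 to 19.6 TPM in sgLmo2, 12.2 to 18.6 in sgCont, 10.1 to 11.7 in sgCbfa2t2, 8.31 to 12.9 in sgCbfa2t3 and 4.42 to 6.15 in sgZbtb1. Of the 26, *Dcn*, *Lum*, *Postn* and *Col3a1* were at 0 in all libraries, while *Pdgfrb* and *Timp3* were high enough to enter the fit. The sum was thus lowest in sgZbtb1, as *Ly6d* was, and its part in the *Ly6d* result was not tested. The GFP+hNGFR+ sort would leave out stromal cells without these markers. The 2 stromal markers in the fit, *Pdgfrb* and *Timp3*, were not called against sgCont by limma, edgeR or DESeq2, and both had an unadjusted p under 0.05 in sgZbtb1. Their log2 differences from sgCont in sgZbtb1 were -1.42 and -1.62.

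Of 17 T cell markers, 13 had reads, and their sum was 137.4 to 175.3 TPM in sgLmo2, 130.1 to 163.6 in sgCont, 111.2 to 121.7 in sgCbfa2t2, 116.5 to 127.1 in sgCbfa2t3 and 70.7 to 97.2 in sgZbtb1. Of the 7 in the fit, *Lck*, a kinase of T cell receptor signalling, fell in sgZbtb1 by 0.87 on the log2 scale (limma adjusted p = 0.000116) and *Cd247*, the zeta chain of that receptor, was -2.24 (limma adjusted p = 0.01), with all 3 sgZbtb1 libraries at or under the floor. The *Cd247* call was lost with 2 of the 6 libraries left out and under 1 of 7 other settings. Of 21 myeloid markers, 12 had reads, with sums of 271.2 to 321.2 TPM in sgLmo2, 212.5 to 271.5 in sgCont, 216.9 to 249.6 in sgCbfa2t2, 203.2 to 226.1 in sgCbfa2t3 and 157.1 to 197.9 in sgZbtb1. Of the 8 in the fit, *Adgre1*, the F4/80 antigen of macrophages, fell in sgZbtb1 by 1.2 on the log2 scale (limma adjusted p = 5.47e-08), and no other was called. These calls, 2 of 7 and 1 of 8 lower, stand beside 2.94% lower over all genes. Without *Adgre1* the myeloid sum was 119.3 to 147.5 TPM in sgZbtb1 and 126.8 to 137.8 in sgCont, and in sgLmo2, where the full sum was highest, 6 of the 8 genes lay below 0 on the log2 scale. Without *Lck* the T cell sum was 30.9 to 40.8 TPM in sgZbtb1, 36.7 to 43.4 in sgCbfa2t2 and 56.9 to 71.5 in sgCont. Both full sums were lowest in sgZbtb1, and their part in the *Ly6d* result was not tested.

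**Figure D5:**
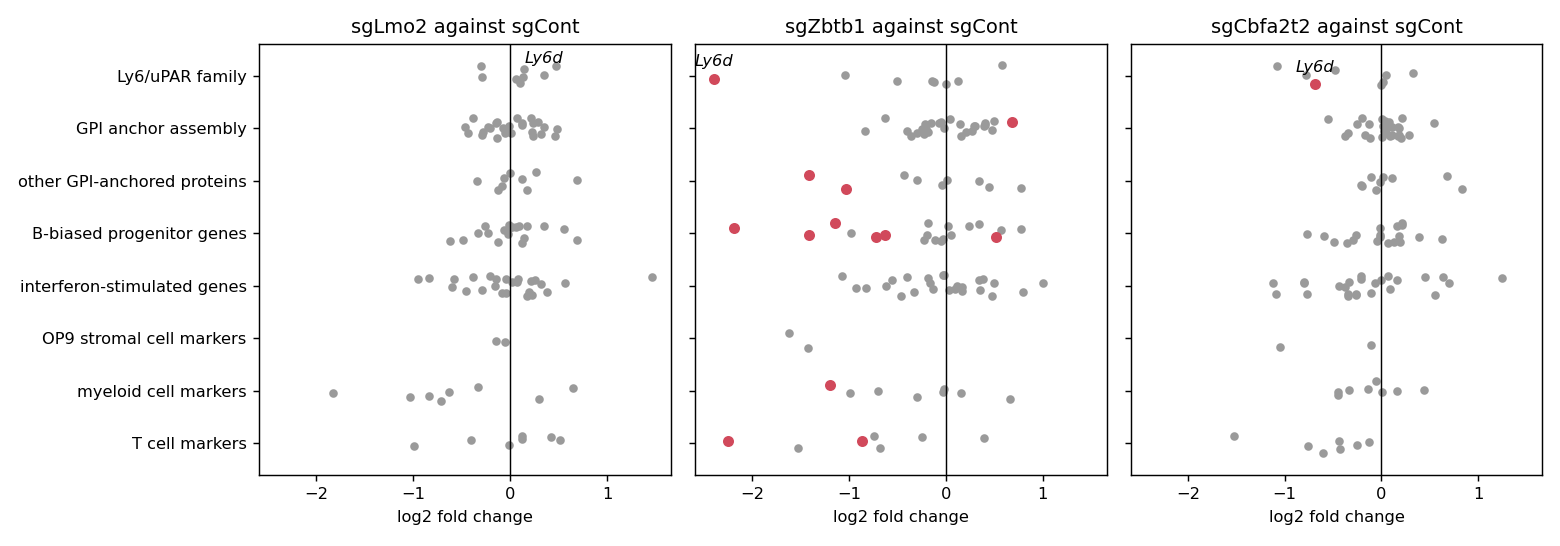
Log2 fold change against sgCont, on log2(TPM + 1), of each gene in the fit, by gene list and sgRNA label. Red points passed a limma adjusted p under 0.05 and grey points did not; points are spread vertically for sight only. In sgCbfa2t2 the only red point is *Ly6d*, and in sgLmo2 there is none.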

How the data were processed

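QuantSeq 3′ libraries were sequenced by the authors, trimmed with fastp and mapped to mm10 with STAR. The deposited TPM column holds counts scaled to one library total and not divided by length, so it is CPM, and whole reads were recovered for 100% of values (tolerance 0.1 read). A line without an identifier was left out. The authors mapped ChIP-seq reads with Bowtie 1.1.1, called peaks with HOMER against input, kept peaks reproducible by IDR, and deposited their normalized signal, a score of 15 or more, in 1 list per factor. The versions of fastp, STAR and HOMER are not given in the sources used here.

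Groups were taken from the labels. The test, limma 3.58.1 under R 4.3.3 with a variance trend, used log2(TPM + 1) of the 11554 genes whose mean exceeded 1 TPM, in one fit of the 15 libraries, with two-sided p-values adjusted by Benjamini-Hochberg over all of them; a gene was called at an adjusted p under 0.05. This scale understates the change of low genes. The steps were tested on simulated data. Alternatives were a pseudocount of 0.1, no filter, a mean above 10, only the compared libraries, median-of-ratios size factors, the replicate block, the study's rule, edgeR 4.0.16 (quasi-likelihood with TMM) and DESeq2 1.42.0 on recovered reads, and leaving out each library. A setting in which only the call rule changes is not among the 8 settings counted for single genes.

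The members and the gene lists were chosen with earlier results of these data known. The genes named are the 5 members, tested family and window genes, the 5 highest and lowest r to *Ly6d*, and called genes of each list. Peak overlap means at least 1 bp. Figures and motif counts used Python 3.11.15. Of 55421 identifiers, 55240 were found in GENCODE vM21.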

Additional observations from a re-analysis of the deposited data

How the results depend on the processing

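No called value changed sign under another setting. The values compared with the main setting were 160 counts of called genes, peaks and motifs and *Ly6d* differences of sgCbfa2t3. Counts within a set ratio of the main value, and differences within the SD of the fit, were taken as unchanged, which held for 152. The exceptions were these. The number of Ly6 genes called in sgCbfa2t2 against sgCont, 1 (*Ly6d*), was 0 with no filter on low values and 0 under the study's rule, which asks for a log2 difference above 1, and it was 0 to 1 with a library left out. With no filter, 18602 genes were fitted and none was called in that comparison, against 17 with the filter, while 1402 had an unadjusted p under 0.05 and edgeR and DESeq2 called 17 and 16 with the filter. When peaks were assigned by a centre within 10 kb of a Ly6 gene in place of the nearest gene, Zbtb1 peaks were 1 in place of 3, and that 1 is the peak downstream of *Ly6a*, not 1 of the 3 that name *Ly6e*. For Cbfa2t3 that rule kept 2 peaks, with the peak downstream of *Ly6a* in place of the one with a score of 520.2. At a score of at least 30, the Cbfa2t3 peaks that name a Ly6 gene were 1 in place of 2. The same cut left out the Zbtb1 peak with a score of 19.9, a change within the set ratio. Of 1021 values of single genes, 932 stayed on their side of the threshold or, for the untested sgCbfa2t3 values, within the SD of the fit. The other 89 no longer passed the threshold. Of 256 values that passed in neither fit, 18 changed sign. The count of all genes called in sgLmo2 against sgCont, 2, was 4 without sgLmo2 replicate 1, 3 without sgCont replicate 3 or by DESeq2, and 1 without sgCont replicate 2, sgLmo2 replicate 2 or sgLmo2 replicate 3 or with the compared libraries alone. In sgZbtb1 against sgCont the count, 554, was 330 with no filter, 353 without sgCont replicate 2, 330 without sgCont replicate 3 and 306 without sgZbtb1 replicate 3. In sgCbfa2t2 against sgCont it was 6 and 2 without sgCont replicates 2 and 3, 2 without sgCbfa2t2 replicate 2 and 26 without sgCbfa2t2 replicate 3. In sgZbtb1 against sgLmo2 the count, 585, was 356 with no filter and 365, 333 and 364 without sgLmo2 replicate 2, sgLmo2 replicate 3 and sgZbtb1 replicate 3. In sgCbfa2t2 against sgLmo2 the count, 27, was 5 with no filter, 17, 9 and 13 without sgLmo2 replicates 1, 2 and 3, and 17 without sgCbfa2t2 replicate 2, while 18 were left without its replicate 1. In sgZbtb1 against sgCbfa2t2 the count, 262, was 140 with no filter, 170 without sgZbtb1 replicate 2 and 131 without sgCbfa2t2 replicate 2.

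*Ly6d* in sgZbtb1 against sgCont was between -2.43 and -2.38 on the log2 scale over 8 settings and between -2.57 and -2.25 with a library left out. Replicate numbers 1 to 3 recur in each condition. Deviations from the condition means had a mean r of 0.041 (-0.013 to 0.113) over 30 pairs of libraries with the same number. Over 60 pairs with different numbers the mean r was -0.020, and 13 of 15 libraries were closest to their own number. The main fit did not take the numbers as pairs, and the replicate block was run as an alternative. With the replicate block, the number of Ly6 genes called changed in none of the 6 comparisons. *Ly6d* was at a limma adjusted p of 0.0067 in sgCbfa2t2 and 3.8e-24 in sgZbtb1 against sgCont. Over all genes, 36 in place of 17 were called in sgCbfa2t2 against sgCont, 14 in place of 2 in sgLmo2 and 709 in place of 554 in sgZbtb1. *Ly6k*, with at most 2 reads in a library, was below the floor throughout. Protein sequences of the Ly6 genes and promoters other than those of *Ly6c2* were not used here.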

Other observations

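The promoter windows of *Ly6c2* (2 overlapping windows, 250 bases before to 50 after a RefSeq start) each held 1 TGTGGT and 1 CAGCTG. Since the windows overlap, these can be the same matches. These were present in 16.8% and 16.3% of 32851 windows of the same length. Neither list has a peak that names *Ly6c2*.

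Genes of the marker lists also passed in comparisons without sgCont. *Dntt*, which adds bases at immunoglobulin and T cell receptor joints, was higher in sgZbtb1 than in sgLmo2 by 0.72 on the log2 scale (limma adjusted p = 0.00153), a call that was lost with 1 of 6 libraries left out. *Cebpa*, a myeloid transcription factor, was higher by 1.38 (limma adjusted p = 0.0171), and *Lat* and *Trac*, genes of T cell receptor signalling, were lower, with log2 differences of -1.10 and -0.87 (limma adjusted p = 0.0456 and 0.0481). With a library left out, *Cebpa* was called in 3 of 6 fits, *Lat* in 2 and *Trac* in 1, and under the other settings *Lat* was called in 5 of 8 and *Trac* in 4 of 8. *Mpo*, a granule enzyme of neutrophils, was higher in sgCbfa2t2 than in sgLmo2 by 2.26 (limma adjusted p = 0.0428), a call made under 4 of 7 other settings and in 3 of 6 fits with a library left out. *Thy1* and *Adgre1* were lower in sgCbfa2t2 than in sgLmo2, with log2 differences of -0.46 and -0.65 (limma adjusted p = 0.0296 and 0.0469). With a library left out, *Thy1* was called there in 1 of 6 fits and *Adgre1* in 0 of 6. *Pigx* was higher in sgZbtb1 than in sgCbfa2t2 by 0.81 (limma adjusted p = 0.021), a call made in 4 of 6 such fits. *Cd24a*, *Thy1*, *Ighm*, *Adgre1* and *Lck* were also lower in sgZbtb1 than in either sgLmo2 or sgCbfa2t2, and these calls held with each library left out. The *Ighm* call against sgCbfa2t2 was made under 6 of 8 other settings. *Cd93* was higher in sgZbtb1 than in sgLmo2 by 0.53 (limma adjusted p = 0.000108), which held with each library left out. It was higher than in sgCbfa2t2 by 0.33 (limma adjusted p = 0.0461), a call made in 0 of 6 such fits.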
